A study of Mus musculus with 5 samples.

Results

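The 9 genes described here code for molecular chaperones of the heat shock families: Hspa1a, Hspa1b, Dnajb1, Hsph1, Hspa8, Hsp90aa1, Hsp90ab1, Hspb1 and Hspa5. They were taken by symbol from the gene tables of 5 single-cell RNA libraries of mouse skin, where they make up 9 of 27998 genes, and each symbol was found in 1 row. Their unique molecular identifiers (UMIs, each standing for a captured RNA molecule) were followed by library and by cell class. All libraries came from C57BL/6 mice. For the 2 un-wounded libraries, which carried no treatment, normal skin was used. For the 3 wounded libraries, a hole of 6 mm was punched in the skin of mice aged 7 weeks, and 4 days after that a disc of 10 mm that included the hole was cut out. The labels do not give the age of the un-wounded mice, and they do not say how the skin was dissociated. In each case the tissue was turned into a suspension, live cells were sorted, and 10x Genomics 3' v1 libraries were made.

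Chaperones bind unfolded stretches of other proteins and keep them from clumping. The cytosolic members are switched on by heat shock factor 1 when unfolded protein builds up, whereas Hspa5 sits in the endoplasmic reticulum and is switched on by the unfolded protein response of that compartment. Inducible chaperones rise together with immediate early genes such as Fos and Jun when solid tissue is digested into single cells. Skin keratinocytes also carry a steady level of the small heat shock protein Hspb1. The labels do not separate a response to the wound from a response to handling. Every library went through suspension and sorting, but the labels do not say whether the dissociation was alike.

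After filtering, 25642 cells were kept, between 3991 and 7066 in a library, with median depths from 6019 to 7933 UMIs. The whole matrices held between 33537809 and 59621412 UMIs, and 26 to 63 cell barcodes were shared by any pair of libraries. Classes were named from markers after clustering without the 9 genes and without the other stress genes listed below, and 25 of 30 clusters received a name. The cell mixture differed inside each group. Basal keratinocytes made up 2193 cells of un-wounded library 1 and 933 of un-wounded library 2, and 1544, 32 and 150 cells of wounded libraries 1, 2 and 3. Fibroblasts made up 486 and 2065 cells of the un-wounded libraries and 1852, 1745 and 1037 of the wounded ones. The basal class of wounded library 2 thus rested on few cells. Nothing in the labels says that libraries of a group came from separate animals, so p-values measure the spread between these libraries only.

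Hspa1a and Hspa1b, the stress-inducible cytosolic Hsp70 genes, lie on the minus strand of chromosome 17 at 34969190 to 34972156 and 34956436 to 34959238 (GRCm38). Their transcripts are near copies: 58.8% of the 50-base windows of Hspa1a also occur in Hspa1b. The last 500 bases, from which 3' libraries draw most of their reads, shared 0% of windows, so the genes can be told apart there. Hspa1a overlaps the gene Gm20481 on the opposite strand. The pair is shown because the control regions are almost the same while the measured levels, given further on, were not in step. Of the 250 bases before each start site (RefSeq, GRCm38.p6), 247 are identical. Capitals mark the letters GAANNTTC, a pair of inverted units of the heat shock element bound by heat shock factor 1, searched on both strands. It begins 104 bases before the start in each gene and occurs in 7.86% of the 32851 promoter windows of 300 bases in the same table. The windows printed are chr17:34972157-34972406 and chr17:34959239-34959488, read on the minus strand.
Hspa1a: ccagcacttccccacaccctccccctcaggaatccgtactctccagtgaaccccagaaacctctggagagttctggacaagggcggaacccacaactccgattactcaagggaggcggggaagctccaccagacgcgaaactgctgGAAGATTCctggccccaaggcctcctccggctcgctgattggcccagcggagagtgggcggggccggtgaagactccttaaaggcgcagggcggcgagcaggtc
Hspa1b: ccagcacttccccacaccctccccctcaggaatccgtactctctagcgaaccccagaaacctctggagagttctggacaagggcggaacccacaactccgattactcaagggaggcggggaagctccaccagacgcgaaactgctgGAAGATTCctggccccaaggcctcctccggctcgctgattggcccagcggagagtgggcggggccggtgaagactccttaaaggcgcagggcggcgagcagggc

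Hspb1, on the plus strand of chromosome 5 (135887919 to 135889563), codes for the small heat shock protein that skin keratinocytes hold at a high level. Its 250 bases before the start (chr5:135887669-135887918) hold GAANNTTC at 2 places, which begin 117 and 97 bases before the start and are in capitals.
Hspb1: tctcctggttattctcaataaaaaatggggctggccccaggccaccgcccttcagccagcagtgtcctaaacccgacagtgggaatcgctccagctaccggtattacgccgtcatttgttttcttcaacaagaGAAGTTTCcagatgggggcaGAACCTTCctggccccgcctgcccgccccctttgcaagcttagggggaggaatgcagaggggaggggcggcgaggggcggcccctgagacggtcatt

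Hsph1, on the minus strand of chromosome 5 (149614287 to 149636376), codes for Hsp110, which reloads Hsp70 with nucleotide. It has 2 listed start sites. Just after the first of them the longer element TTCNNGAANNTTC is found, which overlaps both shorter forms and occurs, on either strand, in 0.603% of the promoter windows. The site is shown (chr5:149636287-149636316, minus strand, element in capitals) because Hsph1 was the member called higher in wounded fibroblasts.
Hsph1: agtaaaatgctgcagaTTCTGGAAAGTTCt

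Hspa5, on the plus strand of chromosome 2 (34771970 to 34777547), codes for BiP, the Hsp70 of the endoplasmic reticulum. Its 250 bases before the start (chr2:34771840-34772089) hold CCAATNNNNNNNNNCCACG, the element through which ATF6 acts, in capitals and beginning 65 bases before the start. That element was found on either strand in 0.119% of the promoter windows. No GAANNTTC or TTCNNGAA was found in the 300-base window of Hspa5, nor in those at the 2 start sites of Dnajb1, a cytosolic member. This says only that these letters are not there.
Hspa5: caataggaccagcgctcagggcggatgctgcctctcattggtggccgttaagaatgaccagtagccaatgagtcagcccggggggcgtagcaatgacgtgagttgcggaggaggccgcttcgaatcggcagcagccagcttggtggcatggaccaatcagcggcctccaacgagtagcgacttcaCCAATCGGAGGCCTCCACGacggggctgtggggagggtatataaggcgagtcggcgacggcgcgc

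The level of most members differed between cell classes. Among the 10 classes compared in the wounded libraries, Hspb1 was high in keratinocytes, muscle and endothelium. Of the same classes, Hspa5 and Hspa8 were highest in dendritic cells and macrophages, and Dnajb1 was highest in basal and spinous keratinocytes. Hspa1a was low in spinous and basal cells and high in fibroblasts and dendritic cells. Mast cells and pericytes, which had too few cells in some wounded library, are given at the end. In the wounded libraries 10 classes held at least 30 cells in each library, and each was compared with the mean of the other 9 by edgeR's quasi-likelihood test with the library as a block. Between 25.3% (neutrophils) and 55.4% (fibroblasts) of 10468 genes were called in these contrasts (adjusted p under 0.05). Of the 9 members, 8 were called in macrophages or monocytes (49.1% of genes), 7 in dendritic cells (52.5%), 7 in skeletal muscle cells (42.7%) and 6 in fibroblasts (55.4%). In the hair follicle 5 were called in upper follicle keratinocytes, 1 higher and 4 lower (27.9%), and 4 in bulge keratinocytes (25.9%). Spinous keratinocytes had 4 (40.2%), neutrophils 3 (25.3%), basal keratinocytes 2 (36.5%) and vascular endothelial cells 2 (36.1%). The members' share was below that of all genes in basal and endothelial cells and above it in the other 8. Levels are given as CPM, a gene's UMIs scaled to the same total in each class sum, with the SD over libraries. They are compared between classes and libraries, not between genes.

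**Figure D1:**
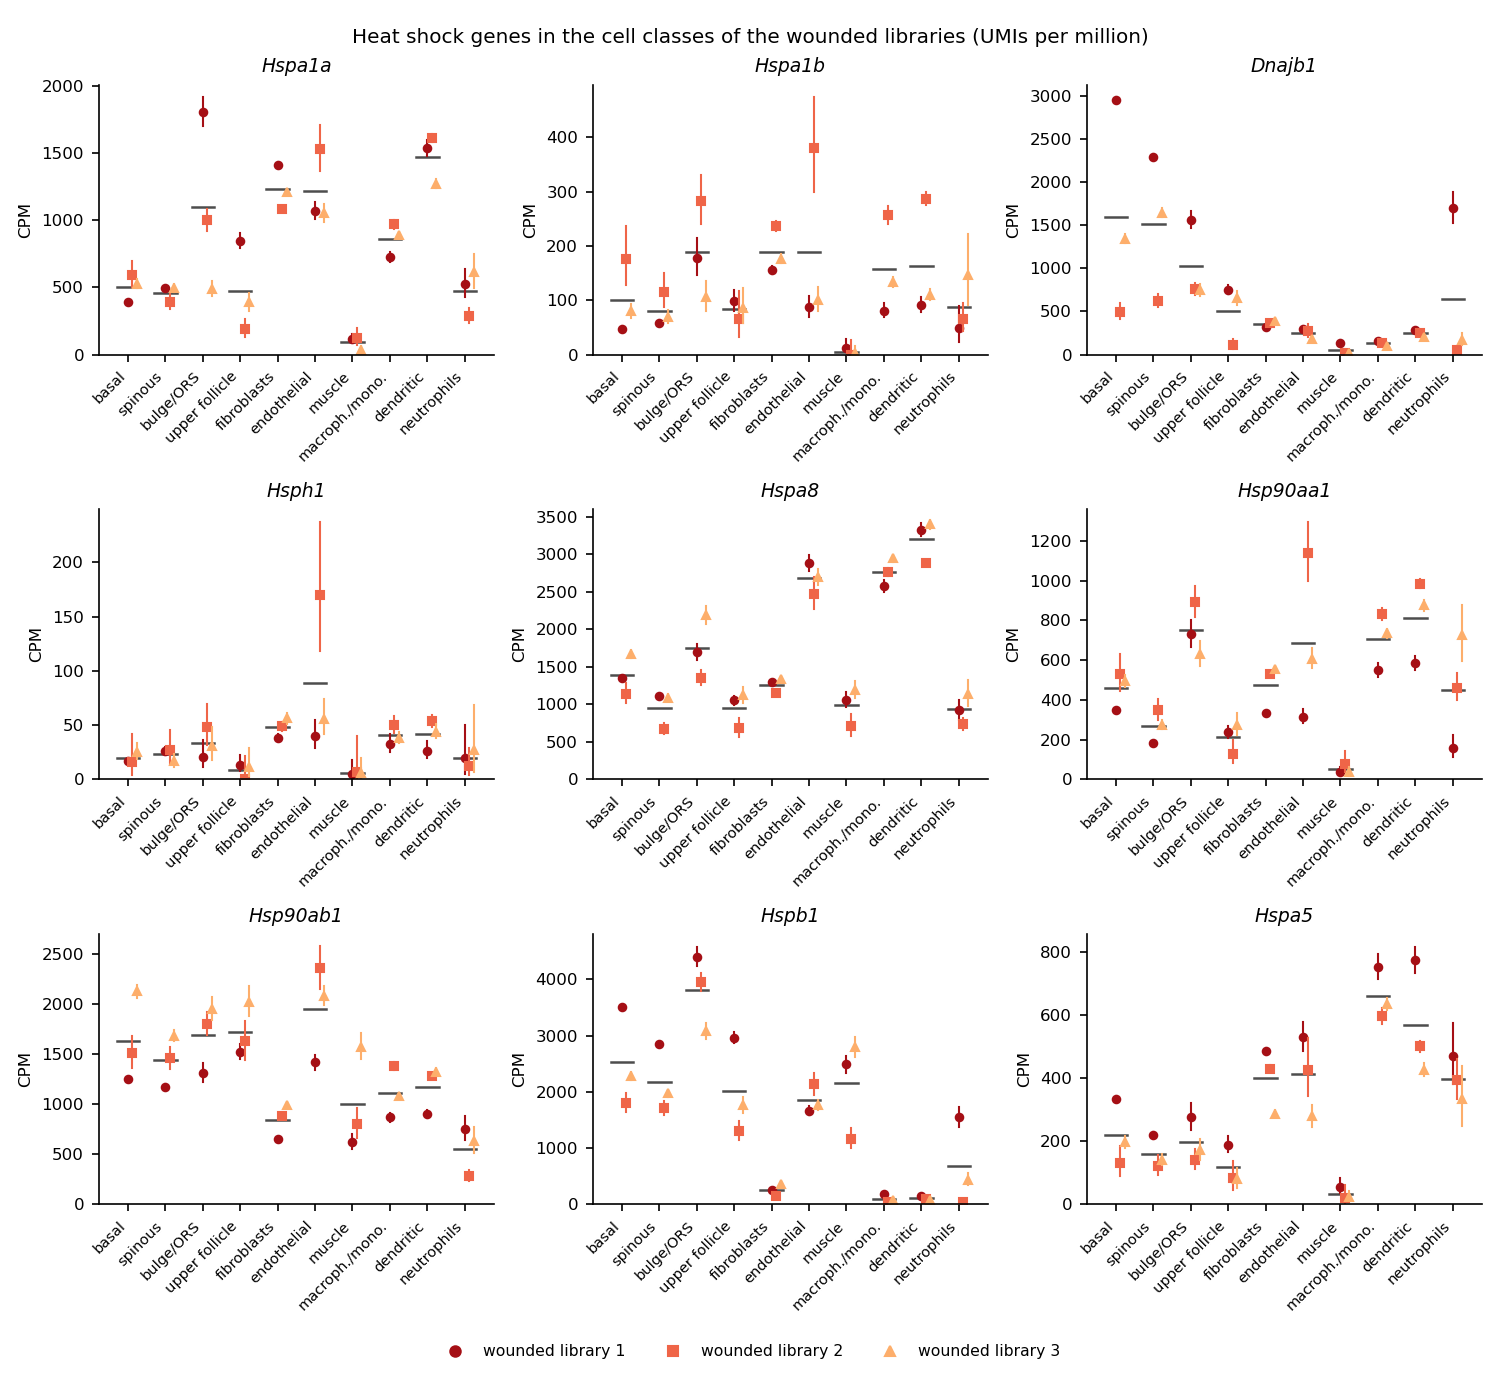
Level of members in 10 cell classes of the 3 wounded libraries, in CPM on a linear axis, each point a library with its exact 95% Poisson interval. Hspb1 in keratinocytes, muscle and endothelium lies above fibroblasts, dendritic cells and macrophages or monocytes, neutrophils spread from 42.6 to 1545, and Hspa5 is lowest in skeletal muscle cells.

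Hspb1 stood at 3813 ± 670 CPM (SD, n = 3) in wounded bulge and outer root sheath keratinocytes, the hair follicle's outer layer, and at 2533 ± 881 in basal and 2176 ± 599 in spinous keratinocytes. The ranges of these neighbours overlapped. It stood at 1855 ± 245 in vascular endothelial cells, at 252 ± 101 in fibroblasts, at 109 ± 36.7 in dendritic cells and at 98.9 ± 77.5 in macrophages or monocytes. The endothelial and fibroblast libraries did not overlap with the next lower class on the list, whereas dendritic cells and macrophages did. Against the mean of the other classes Hspb1 was higher in basal (log2 1.56 ± 0.35 SE, adjusted p = 0.0013), bulge (2.21 ± 0.33, adjusted p = 4.0e-05), spinous (1.55 ± 0.35, adjusted p = 0.0012), upper follicle (1.17 ± 0.36, adjusted p = 0.020) and skeletal muscle cells (1.82 ± 0.35, adjusted p = 0.00025). It was lower in dendritic cells (-3.01 ± 0.51), fibroblasts (-2.03 ± 0.47) and macrophages or monocytes (-3.55 ± 0.53). All of these were edgeR quasi-likelihood tests. Class accounted for 88.6% of the sum of squares of Hspb1 over 5 classes and 5 libraries, on the log2(CPM + 10) scale, against a median of 58.6% over 4793 genes.

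Keratinocyte RNA was present in the other classes, and is given beside the low Hspb1 values there. Krt14, a basal keratin that fibroblasts do not make, was found in fibroblasts at 1066 and 176 CPM in the un-wounded libraries and at 249.6, 16.1 and 34.2 in the wounded ones. Fibroblast Hspb1 stood at 676 and 205 CPM and at 252, 151 and 353. Both were highest in un-wounded library 1, but wounded library 3 had the next highest Hspb1 with little Krt14. The 9 basal markers summed to 739 to 3297 CPM in un-wounded fibroblasts and 165 to 724 in wounded ones, and none of the 9 was at 0. UMIs of Hspb1 per UMI of Krt14 were 0.25 and 0.20 in un-wounded basal cells and 0.63 and 1.16 in the fibroblasts of the same libraries. In wounded libraries 2 and 3 the ratio was 0.12 and 0.11 in basal cells and 9.38 and 10.3 in fibroblasts. In endothelial cells of wounded library 3 it was 48.0. The ratios in fibroblasts and endothelial cells were thus above those of basal cells of the same library. Bulge and spinous keratinocytes had higher ratios than basal cells. In un-wounded bulge cells the ratio was 1.38 and 1.31, and these and the spinous ratios were above those of fibroblasts. In wounded library 1 fibroblasts stood at 1.01, below bulge (1.12) and above spinous cells (0.70). In wounded libraries 2 and 3 the bulge ratios of 0.94 and 0.54 were below those of fibroblasts. The part of keratinocyte RNA in the fibroblast values was not tested further.

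Dnajb1, the Hsp40 partner that hands clients to Hsp70, stood at 1594 ± 1245 CPM in wounded basal and 1518 ± 840 in spinous keratinocytes (SD, n = 3). It stood at 357 ± 38.6 in fibroblasts and at 128 ± 25.5 in macrophages or monocytes. The keratinocyte values spread widely from library to library, and the fibroblast values did not overlap with those of endothelial cells. Against the mean of the other classes it was higher in basal (log2 1.91 ± 0.43, adjusted p = 0.0016) and spinous cells (2.13 ± 0.42, adjusted p = 0.00040) and lower in macrophages or monocytes (-1.53 ± 0.58, adjusted p = 0.034) and skeletal muscle cells (-2.82 ± 0.74, adjusted p = 0.0045), by edgeR. Neutrophils of wounded library 1 held 1700.4 CPM of Dnajb1 and 1545 of Hspb1 in 43 cells, beside 6189 of Krt14, and those of wounded library 2 held 55.2, 42.6 and 218. Neutrophils of wounded library 3 held 173, 440 and 287 in 35 cells, so wounded libraries 2 and 3 were closer in Krt14 than in Hspb1. The high neutrophil library was also the one with the most keratin RNA, and the part of that RNA in these values was not tested.

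Among the 10 classes compared, Hspa1a was highest in dendritic cells of the wounds at 1474 ± 179 CPM (SD, n = 3). Next came fibroblasts at 1234 ± 166, endothelial cells at 1216 ± 270 and bulge keratinocytes at 1099 ± 664. These 4 classes overlapped one another. Macrophages or monocytes at 863 ± 124 did not overlap with basal keratinocytes at 504 ± 103. The contrasts for dendritic cells (log2 1.64 ± 0.25, adjusted p = 7.0e-06), fibroblasts (1.01 ± 0.26, adjusted p = 0.0022) and macrophages or monocytes (0.70 ± 0.27, adjusted p = 0.038) passed edgeR's test. In skeletal muscle cells it stood at 91.0 ± 47.7 CPM and was lower than in the other classes (log2 -2.81 ± 0.41), a direction that turned when suspected doublets were kept (0.38) or when clusters were made finer (0.36). Hspa1b was higher in the same 3 classes and in bulge keratinocytes, at 0.80 to 1.09 on the log2 scale. With finer clusters the fibroblast contrasts of Hspa1a, Hspa1b and Hspa5 were 0.32, 0.52 and 0.36 and no longer called, and with doublets kept the macrophage contrast of Hspa1a was 0.34 and not called. DESeq2 did not call that contrast either (0.48, adjusted p = 0.18). The skeletal muscle contrasts should be read beside a median of -0.77 over all genes, and with doublets kept 0 of the 7 members called in that class were called.

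Hspa8, the constitutive cytosolic Hsp70, stood at 3203 ± 277 CPM in wounded dendritic cells, 2763 ± 184 in macrophages or monocytes and 2685 ± 205 in endothelial cells (SD, n = 3). The last of these did not overlap with bulge keratinocytes, the next class at 1746 ± 421. The contrasts were 1.47 ± 0.13 in dendritic cells, 1.12 ± 0.14 in macrophages or monocytes and 0.46 ± 0.15 in endothelial cells on the log2 scale, and edgeR called each of them. Hspa5 followed a like order: dendritic cells were higher by log2 1.58 ± 0.16 (adjusted p = 1.2e-10), macrophages or monocytes by 1.78 ± 0.16 (adjusted p = 4.6e-12), neutrophils by 1.19 ± 0.19 and fibroblasts by 0.73 ± 0.17. It was lower in skeletal muscle cells (-2.72 ± 0.29), in the upper follicle (-1.31 ± 0.23) and in bulge (-0.67 ± 0.21) and spinous keratinocytes (-0.62 ± 0.20). Of the 3 fits that left out a library, all lost the bulge call and 2 lost the spinous call.

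The Hsp90 genes differed in where they were high. Hsp90aa1, the inducible cytosolic Hsp90, was higher in dendritic cells (log2 1.43 ± 0.20), macrophages or monocytes (1.10 ± 0.20) and bulge keratinocytes (0.81 ± 0.21), and lower in skeletal muscle cells (-3.01 ± 0.34) and the upper follicle (-0.90 ± 0.26). Hsp90ab1, its constitutive partner, passed the test only downward, in fibroblasts (-0.69 ± 0.18, adjusted p = 0.0013) and neutrophils (-0.99 ± 0.19, adjusted p = 0.00010). In skeletal muscle cells it stood at 1000.3 ± 507 CPM and differed from the mean of the others by -0.02 ± 0.17. Hsph1 was higher in dendritic cells (1.002 ± 0.20), fibroblasts (0.90 ± 0.18), macrophages or monocytes (0.83 ± 0.20) and endothelial cells (1.11 ± 0.25), and lower in the upper follicle (-1.26 ± 0.41) and skeletal muscle cells (-2.01 ± 0.63), by edgeR. Its levels in the latter classes were near the floor, from 0 to 13.4 CPM in the upper follicle and from 4.92 to 7.14 in muscle. Each of these lower calls was lost in 2 of the 3 fits that left out a library.

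Fibroblasts and basal keratinocytes, the classes with most cells, could be compared in all 5 libraries. Fibroblasts held more Hspa1a (log2 1.47 ± 0.35, adjusted p = 0.0012), Hspa1b (1.31 ± 0.29, adjusted p = 0.00060), Hspa5 (1.39 ± 0.20, adjusted p = 2.7e-06) and Hsph1 (0.97 ± 0.21, adjusted p = 0.00019). They held less Hspb1 (-3.05 ± 0.23, adjusted p = 1.5e-09), Dnajb1 (-1.98 ± 0.39, adjusted p = 0.00021) and Hsp90ab1 (-0.81 ± 0.08, adjusted p = 8.0e-10), while Hspa8 and Hsp90aa1 each differed by -0.02 and did not pass edgeR's test. These 7 calls of 9 stand beside 71.8% of all genes called in the same contrast, with 4 higher beside 37.5% and 3 lower beside 34.3%, so the members' counts are near those of genes at large. In bulge keratinocytes, where 30.8% of genes were called against basal cells and 16.4% were called higher, Hspa1a (1.18 ± 0.35, adjusted p = 0.016) and Hspa1b (1.41 ± 0.31, adjusted p = 0.0016) were higher. The Hspa1a call was lost in 3 of the 5 fits that left out a library. In the upper follicle, where 30.9% were called and 15.5% were called lower, Dnajb1 (-1.72 ± 0.39), Hspa5 (-0.77 ± 0.22) and Hspa8 (-0.58 ± 0.11) were lower. In spinous cells, where 28.8% were called and 14.4% were called lower, Hsp90aa1 (-0.71 ± 0.26, adjusted p = 0.045) and Hspa8 (-0.32 ± 0.11, adjusted p = 0.029) were lower, and with a library left out at most 1 of these 2 calls was kept.

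**Figure D2:**
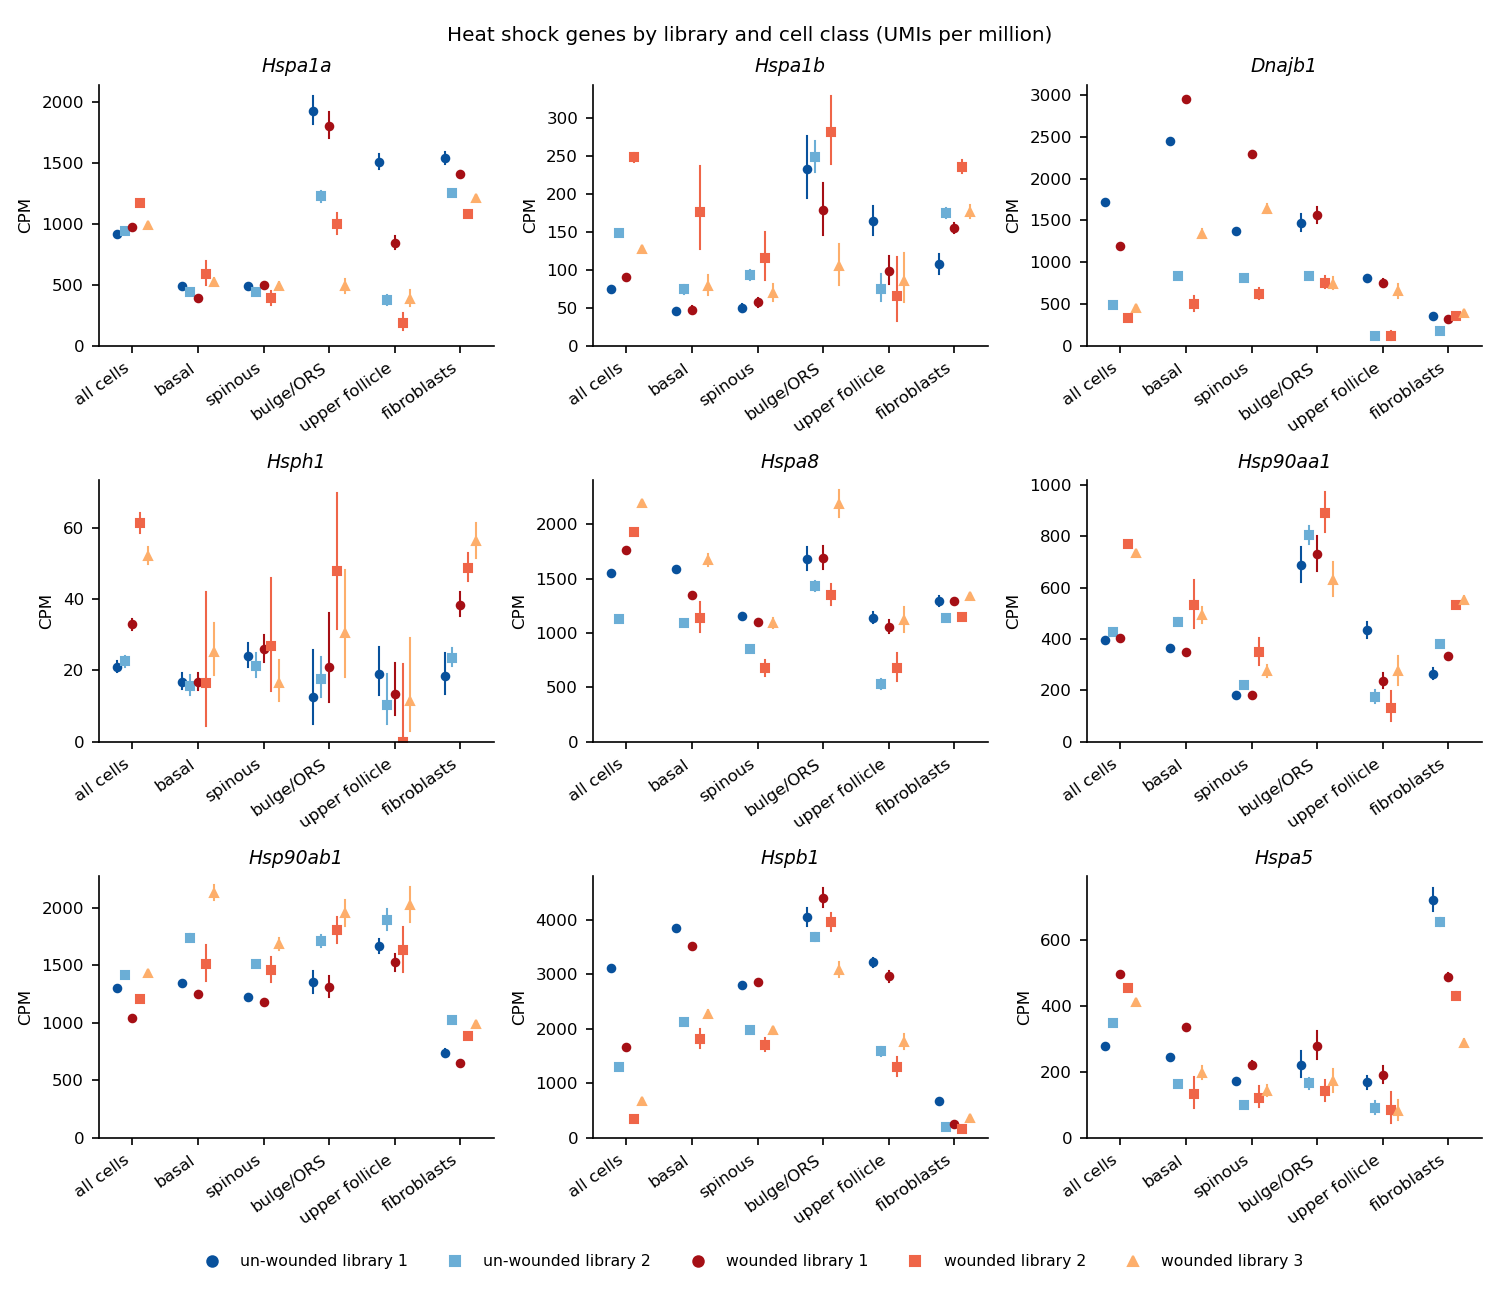
Level of each of the 9 members in all cells and in 5 cell classes, in CPM on a linear axis, each point a library with its exact 95% Poisson interval. Blue points are the 2 un-wounded and red points the 3 wounded libraries, and for Dnajb1 and Hspb1 the libraries of a group lie far apart.

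Libraries of the same group differed from each other in Dnajb1, Hspb1 and Hspa1b by as much as the groups did. Dnajb1 in all cells stood at 1724 and 492 CPM in the un-wounded libraries and at 1194, 330.2 and 456 in the wounded ones. Library 1 of each group was the high one, and the groups overlapped. The difference was also there inside basal keratinocytes, with 2450.2 and 832 CPM against 2946, 495 and 1342, and inside spinous keratinocytes, with 1374 and 807 against 2289, 623 and 1641. In the upper follicle the values were 805 and 119 against 752, 113 and 650.3. Fibroblasts were different: the un-wounded values were 359.8 and 174, and the wounded values of 317, 361 and 394 lay close together. Krt14 in these fibroblasts was at 1066 and 176 CPM un-wounded and at 249.6, 16.1 and 34.2 wounded. UMIs of Dnajb1 per UMI of Krt14 were 0.16 and 0.08 in un-wounded basal cells and 0.34 and 0.99 in un-wounded fibroblasts. The part of keratinocyte RNA in the fibroblast Dnajb1 values was not tested. With 1 library on each side, differences between libraries of a group have no test.

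A ratio of 2-fold or more was counted against the share of all genes past it. In all cells of un-wounded library 2 relative to library 1, Dnajb1 (log2 -1.81) and Hspb1 (-1.26) were lower by that much, as were 4.3% of 14480 genes, and no member was higher, against 17.7% of genes. In wounded library 2 relative to wounded library 1, Dnajb1 (-1.85) and Hspb1 (-2.30) were lower (13.0% of genes) and Hspa1b (1.46) was higher (10.5%). In wounded library 3 relative to wounded library 1, Dnajb1 (-1.39) and Hspb1 (-1.31) were lower (11.1%) and no member was higher (7.3%). In wounded library 3 relative to wounded library 2 no member was past 2-fold in either direction, where 6.0% of genes were higher and 6.94% lower. Inside basal keratinocytes Dnajb1 was past 2-fold in each of the 4 pairs, at log2 -1.56, -2.57, -1.13 and 1.43, where 2.14%, 11.6%, 8.4% and 7.71% of genes were past it in the same direction. Hspb1 in basal cells differed by between -0.96 and 0.33 on the log2 scale and passed 2-fold in none of these pairs. In fibroblasts Dnajb1 (-1.05) and Hspb1 (-1.72) were lower in un-wounded library 2 than in library 1, as were 5.45% of genes.

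Hspa1a and Hspa1b did not keep step between libraries. The number of Hspa1a UMIs per Hspa1b UMI was 12.1 and 6.3 in the un-wounded libraries and 10.8, 4.7 and 7.7 in the wounded ones, taken over all cells. In fibroblasts it was 14.4 and 7.2 against 9.1, 4.6 and 6.8, and in basal keratinocytes 10.6 and 5.9 against 8.2, 3.4 and 6.6. The order of libraries within a group was the same in these sums: un-wounded 1 above 2, and wounded 1 above 3 above 2. The ratio is used here to compare libraries and not to rank the genes. Per cell, Hspa1b was found more often in fibroblasts that held Hspa1a. Among fibroblasts thinned to 2000 UMIs, Hspa1b was detected in 20% and 29.5% of the un-wounded cells that held Hspa1a and in 5.7% and 13.4% of those that did not. In the wounded libraries the shares were 27.7%, 35.9% and 31.2% against 12.5%, 16.7% and 11.2%. In basal keratinocytes the share was also higher in all 5 libraries. In spinous keratinocytes it was 11.2% against 9.64% in wounded library 1 and 6.25% of 16 cells against 23.5% of 34 in wounded library 2, the reverse order, and higher in Hspa1a cells in the other 3 libraries.

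**Figure D3:**
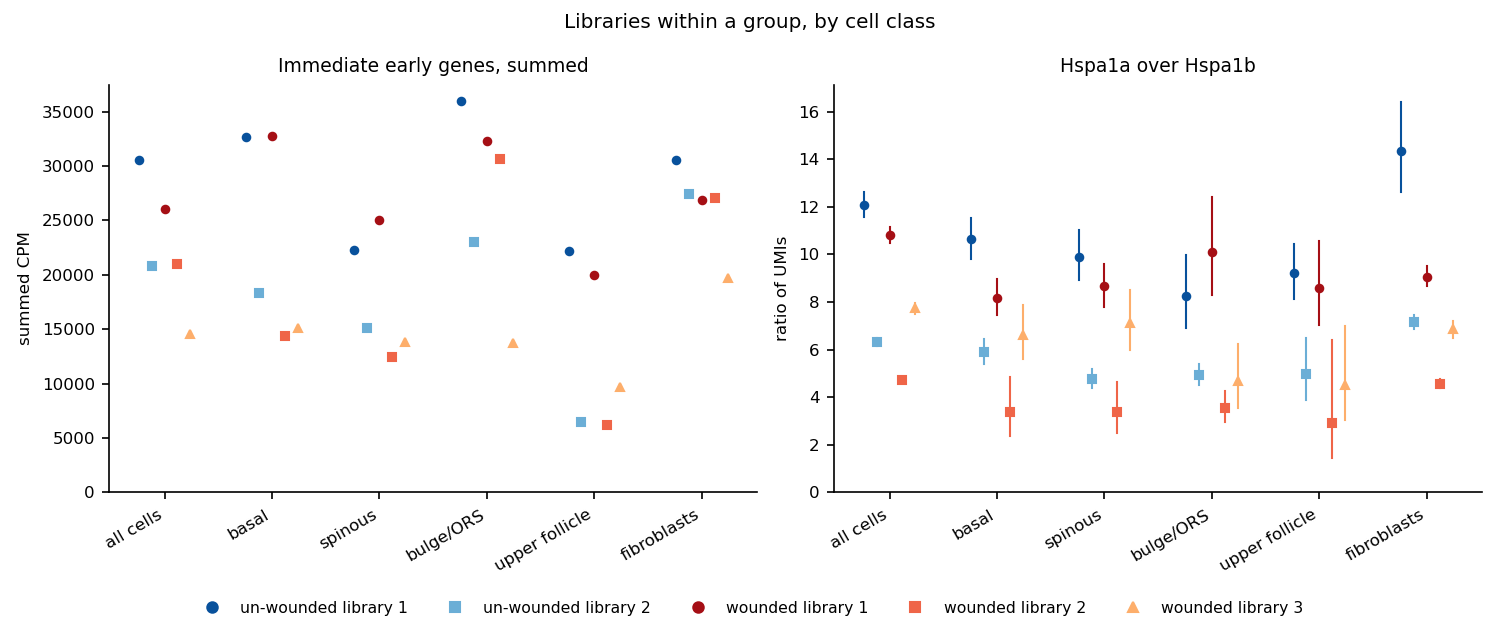
Left, summed level of the immediate early genes in CPM; right, UMIs of Hspa1a per UMI of Hspa1b with exact 95% intervals; both by cell class, on linear axes, each point a library. Library 1 of either group is the highest of its group for the ratio in all 6 columns.

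In basal and upper follicle keratinocytes the immediate early genes were highest in un-wounded library 1 and wounded library 1, as was Dnajb1. The other libraries matched less closely, and so did bulge and spinous keratinocytes. The list held 25 genes, of which 24 were in the table, and they summed to 32666 and 18329 CPM in un-wounded basal cells and to 32777, 14387 and 15143 in wounded ones. The highest sums were in un-wounded library 1 and wounded library 1, where Dnajb1 was also highest. Wounded library 3 had a lower sum than un-wounded library 2 but more Dnajb1, at 1342 against 832 CPM. In the upper follicle the sums were 22188 and 6463 against 19948, 6168 and 9677, the same order of un-wounded 1 and wounded 1 above the others. Wounded library 3 was nearer to those libraries in Dnajb1, at 650 CPM against 805 and 752. In bulge keratinocytes they were 35992 and 23011 against 32300, 30620 and 13768, with the sum of wounded library 2 near that of wounded library 1 while its Dnajb1 was 757 CPM against 1562. In spinous keratinocytes they were 22270 and 15122 against 25019, 12457 and 13792, where wounded library 3 had a low sum with a Dnajb1 level of 1641 CPM. In fibroblasts they were 30507 and 27400 against 26847, 27053 and 19711, a narrower spread. Fos stood at 4638 and 3481 CPM in all cells of the un-wounded libraries and at 3070, 2336 and 1559 in the wounded ones, Jun at 3489 and 1924 against 2646, 1642 and 1096, and Junb at 3077 and 1725 against 2717, 1673 and 1498. The labels name no difference in handling between libraries, and the part of handling in these values was not tested. The median share of mitochondrial UMIs was 2.78% and 2.98% in the un-wounded and 2.39%, 2.57% and 1.85% in the wounded libraries, and it did not follow the order of Dnajb1.

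Over 5 classes and 5 libraries, the library accounted for 30.7% of the sum of squares of Dnajb1 and 31.8% of that of Hspa8, against a median of 18.3% over genes. For Hsp90ab1 the share was 23.6%, for Hspa5 18.9%, for Hspa1a 15.5% and for Hspa1b 11.6%. Hspb1, Hsph1 and Hsp90aa1 had library shares of 7.5%, 6.1% and 3.6%. Of all genes, 69.2% had a lower library share than Dnajb1, so its share was above the median but not extreme. The share describes these libraries and has no test.

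The wound comparison asked which members differed between the groups beyond the spread of their libraries. Hsph1 rose in wounded fibroblasts, and no other member passed the test in any class or in whole libraries. When all cells were summed, 4 members were higher in every wounded library than in either un-wounded one: Hspa1a, Hsph1, Hspa8 and Hspa5. Those 4 of 9 stand beside 23.3% of all genes that were separated in the same direction, and 0 members were separated downward, beside 22.4%. In such sums a change in the number of cells of a type and a change in RNA per cell cannot be told apart.

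In whole libraries 0 of 9 members were called by edgeR, where 8 of 15498 genes (0.0516%) were. By edgeR 1 member had an unadjusted p under 0.05, Hsph1, which stood at 21.1 and 22.6 CPM un-wounded and at 33.0, 61.2 and 52.2 wounded. Its log2 fold change was 1.21 ± 0.36 (adjusted p = 0.13), and DESeq2 called it (1.23, adjusted p = 0.028). The groups did not overlap. Hspa8 stood at 1551 and 1126 against 1766, 1926 and 2199 CPM (0.58 ± 0.32), Hspa5 at 277 and 347 against 496, 454 and 411 (0.57 ± 0.24, adjusted p = 0.20), and Hspa1a at 914 and 939 against 977, 1169 and 988 (0.20 ± 0.26). Hspb1 stood at 3110.4 and 1295 against 1657, 338 and 668 (-1.35 ± 0.70, adjusted p = 0.28), and its groups overlapped, with wounded library 1 above un-wounded library 2.

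**Figure D4:**
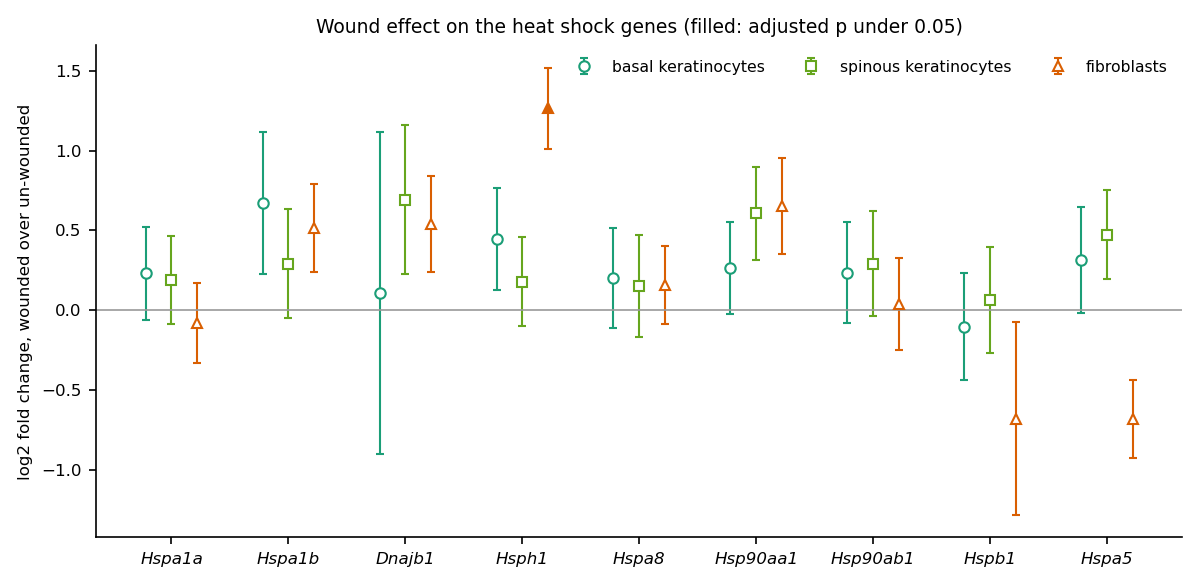
Log2 fold change of each member, wounded over un-wounded, with its SE, in basal keratinocytes, spinous keratinocytes and fibroblasts; filled points passed edgeR's quasi-likelihood test. Hsph1 in fibroblasts is the only filled point, and the SE of Dnajb1 in basal cells is the widest.

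In fibroblasts Hsph1 stood at 18.4 and 23.5 CPM in the un-wounded libraries and at 38.5, 48.8 and 56.2 in the wounded ones. All 3 wounded libraries lay above both un-wounded ones, and the exact 95% intervals did not overlap (13.3 to 24.8 and 21.1 to 26.2, against 35.2 to 42.0 in the lowest wounded library). The log2 fold change was 1.27 ± 0.25 (edgeR, adjusted p = 0.022), and it was the 1 member of 9 called, where 3.69% of 12883 genes were called, 3.02% higher and 0.675% lower. Without wounded library 2 the adjusted p was 0.054, and without wounded library 3 it was 0.075, with fold changes of 1.26 and 1.11.

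The fibroblast clusters were not alike in Hsph1. Cluster 24, led by Thbs4 and Cxcl13, held 0 and 10 cells in the un-wounded libraries and 386, 267 and 198 in the wounded ones, and there Hsph1 stood at 61.5, 119.9 and 98.0 CPM. In cluster 9, the largest, it stood at 19.7 and 17.1 against 24.0, 24.9 and 27.9, and in cluster 10 at 13.8 and 18.4 against 28.1, 25.6 and 40.5. The groups were separated in those clusters by less than in the class as a whole, and in clusters 13 (12.6 and 32.2 against 33.5, 25.5 and 46.1) and 14 (30.1 and 47.6 against 36.0, 36.1 and 48.1) they overlapped. With cluster 24 left out, an alternative chosen after the data were seen, the fold change was 0.70 (adjusted p = 0.31). An unnamed cluster of wound cells with Cthrc1 and Cxcl5 among its leading genes, cluster 26, held Hsph1 at 45.3, 132 and 81.6 CPM. The cells of clusters 24 and 26 were almost all from wounded libraries, so for them the cluster and the wound cannot be told apart.

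**Figure D5:**
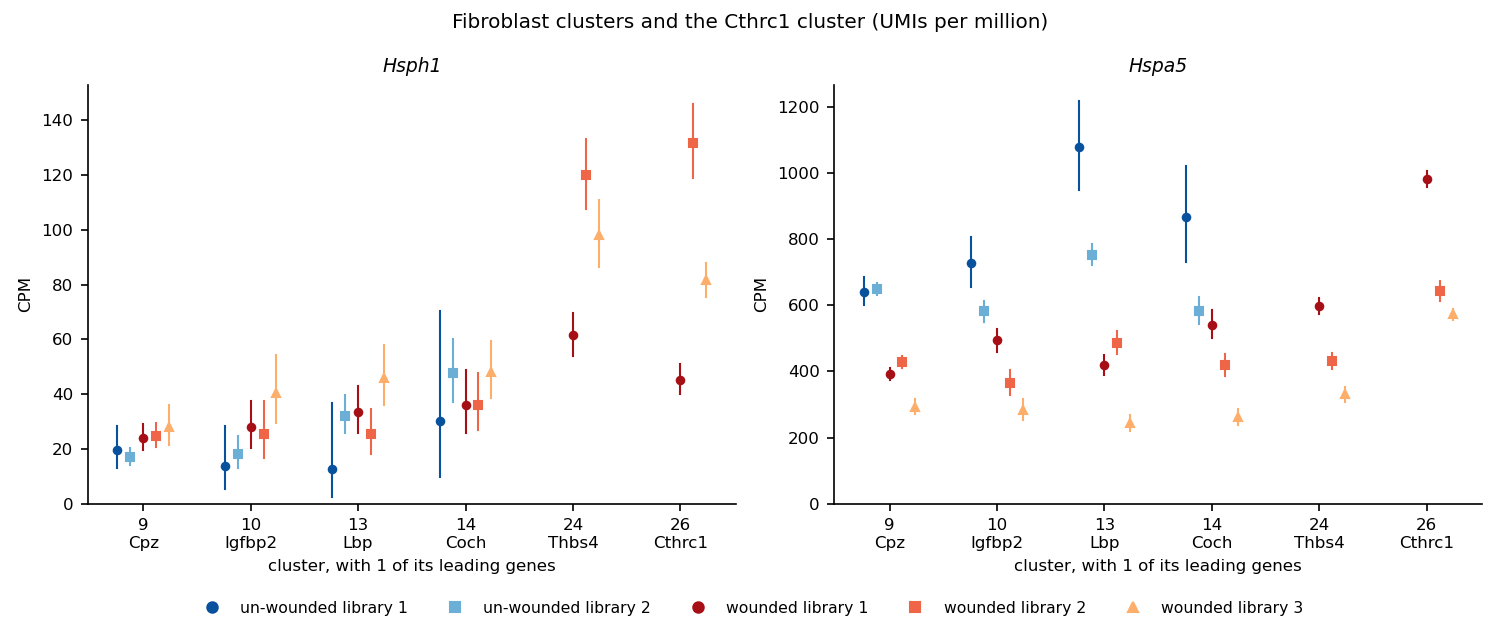
Levels of Hsph1 and Hspa5 in fibroblast clusters 9, 10, 13, 14 and 24 and in cluster 26, in CPM on a linear axis, each point a library with its exact 95% Poisson interval. Clusters 24 and 26 have points from wounded libraries only, with Hsph1 above most points of the other clusters, and Hspa5 is lower in the wounded libraries in clusters 9, 10, 13 and 14.

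Hspa5 ran the other way in fibroblasts. It stood at 721 and 653 CPM in the un-wounded libraries and at 485, 431 and 288 in the wounded ones, without overlap. It was the only member separated downward in this class, where 20.9% of genes were, and Hsph1 the only one separated upward, where 15.3% were. The log2 fold change of Hspa5 was -0.68 ± 0.25 (adjusted p = 0.18), and edgeR did not call it. The 4 clusters with cells in every library each kept the groups apart: cluster 9 with 642 and 649 against 392, 429 and 293 CPM, cluster 10 with 728 and 582 against 494, 365 and 284, cluster 13 with 1077 and 752 against 420, 486 and 244, and cluster 14 with 867 and 583 against 541, 419 and 262. Cluster 26, not part of the class, held 981, 643 and 573 CPM. With its cells added, an alternative chosen after the data were seen, the fold change of Hspa5 was -0.33.

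In basal keratinocytes 0 of 9 members were called, where 1.47% of 11244 genes were, and in spinous keratinocytes 0 of 9, where 1.34% of 10967 were. No member had an unadjusted p under 0.05 in these classes. Hspa1a in basal cells stood at 494 and 440.0 CPM against 391, 593 and 527 (log2 0.23 ± 0.29), and Hspb1 at 3847 and 2126 against 3513, 1809 and 2276 (-0.10 ± 0.34). Dnajb1 in basal cells differed by 0.11 ± 1.01, an SE that leaves large changes in either direction undetected. In bulge keratinocytes 0 of 9 were called (0.531% of genes). Hsph1 stood there at 12.5 and 17.6 against 21.1, 48.0 and 30.5 CPM from 7 to 42 UMIs a library, with a fold change of 1.19 ± 0.44 (unadjusted p = 0.018, adjusted p = 0.37). It was the 1 member whose groups did not overlap in that class, beside 6.98% of genes. In the upper follicle 0 of 9 were called (0.14% of genes), and no member had an unadjusted p under 0.05. DESeq2, too, called 0 members in these 4 keratinocyte classes.

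The difference between the wound effects of fibroblasts and basal keratinocytes was tested itself, with the library as a block. None of the 9 members was called, where 1.28% of 13431 genes were, and 2 members had an unadjusted p under 0.05. DESeq2 called 0 members. Hspa5 had a difference of -1.01 ± 0.39 (adjusted p = 0.34), with fibroblasts going down relative to basal cells, and Hsph1 one of 0.73 ± 0.30 (adjusted p = 0.30). The Hspa5 difference was called without un-wounded library 1 (-1.24, adjusted p = 0.0066), without wounded library 2 (-1.36, adjusted p = 0.0035) and without the filter on low counts (-1.003, adjusted p = 0.011). The rise of Hsph1 in fibroblasts was thus not shown to be different from that in basal cells.

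The share of cells with a UMI was compared at equal depth. After each cell was thinned to 2000 UMIs, Dnajb1 was found in 64.8% and 29.3% of un-wounded cells and in 49.2%, 23.6% and 26.6% of wounded cells. Hspb1 was found in 89.9% and 53.4% against 59.6%, 17.7% and 27.6%, and Hspa5 in 36.5% and 41.3% against 47.9%, 48.0% and 43.6%. The groups overlapped for the former pair and did not for Hspa5, whose difference was 7.61 percentage points (exact two-sided permutation test over 10 assignments, p = 0.1, adjusted p = 0.54). With 2 libraries against 3, no p below 0.1 can be reached. In fibroblasts Hsph1 was found in 2.2% and 4.9% of cells against 5.4%, 6.9% and 8.1%, and Hspa5 in 68.1% and 65.6% against 54.6%, 52.0% and 40.2%. Basal cells, read at the same depth, held Hsph1 in 3.0% of cells in either un-wounded library.

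The UMIs of Dnajb1 and Hspb1 were concentrated in few cells where their levels were low. In wounded library 2 the top 1% of cells held 30.3% of the Dnajb1 UMIs and 31.6% of the Hspb1 UMIs, whereas in un-wounded library 1 they held 7.61% and 6.62%. These are the libraries with the lowest and the highest level of the genes and with the fewest and the most basal cells. For Hspa1a the share was between 12.3% and 15.1% in the 5 libraries, and the highest cell held 224 to 400 UMIs. Hsp90ab1 and Hspa8 were found in most cells before thinning, in 5046 and 4909 of 5145 cells of un-wounded library 2, and the top 1% of those cells held 5.70% and 7.56% of their UMIs.

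Other genes of the same pathways did not pass the wound test in number. Of 32 further heat shock response genes, 0 were called in any class or in whole libraries, where 0.0516% to 3.69% of all genes were. Their median log2 fold changes lay between -0.15 (upper follicle) and 0.13 (basal), beside -0.02 and -0.07 over all genes. The most abundant of them were Serpinh1, the collagen chaperone, at 319.6 and 1417 CPM without and 1638, 1011 and 1451 CPM with a wound, Hspe1, a mitochondrial chaperonin, and Bag1, an Hsp70 co-chaperone. Of 22 unfolded protein response genes 1 was called in fibroblasts, where 3.69% of all genes were. Manf, a secreted factor of the endoplasmic reticulum, was lower by log2 -0.89 ± 0.20 (adjusted p = 0.039). The list's median there was -0.28, beside -0.01 over all genes. Manf was also the 1 gene of that list called in the difference between fibroblasts and basal cells (-0.999 ± 0.25, adjusted p = 0.039), where 1.28% of all genes were. Of the immediate early genes, Ier5 was called higher in basal keratinocytes (1.15 ± 0.29, adjusted p = 0.027), where 1.47% of all genes were called, and no other in any class.

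Between fibroblasts and basal keratinocytes the lists parted. Of 21 unfolded protein response genes tested, 20 were higher in fibroblasts and 0 lower, with a median of log2 1.28 beside 0.03 over all genes, where 37.5% of genes were called higher. Dnajc3, a co-chaperone of Hspa5, was higher by 2.39 ± 0.12 and Xbp1, a transcription factor of the response, by 2.28 ± 0.14, while Calr, Pdia3 and Hsp90b1 were higher by 1.28, 0.82 and 1.38. Of the 32 other heat shock genes, 8 were higher and 13 lower, with a median of -0.15. Those counts stand beside 37.5% of all genes called higher and 34.3% called lower. Cryab and Serpinh1 led the former at 5.09 ± 0.23 and 4.68 ± 0.15. Of 24 immediate early genes, 12 were higher in fibroblasts and 2 lower, with Cebpb at 2.49 ± 0.31 and Ier5 at 2.38 ± 0.22.

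The genes most like Hspa1a over 54 sums of a class in a library, among 5161 genes, were Zfp36l1 (Pearson r = 0.78), Degs1 (0.77), Lrrc58 (0.76), Serinc1 (0.75) and Myl6 (0.74). Among the members Hsp90aa1 reached 0.79, Hspa5 0.72 and Hspa1b 0.69, whereas Dnajb1 reached 0.36 and Hspb1 -0.25. Those nearest to Hspa5 were Serp1 (0.90), Atp6ap2 (0.87), Rap1b (0.86), Selk (0.85) and Arpc1b (0.85). The sums share libraries and depth, so these values describe likeness of pattern only.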

How the data were processed

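UMI counts per gene and cell were deposited by the authors as filtered 10x matrices for 5 libraries. Per the submitters' processing notes they were made with Cell Ranger 1.3.1 on mm10. Reads were not reprocessed. Barcodes with fewer than 200 genes or over 10% mitochondrial UMIs were left out, and the highest Scrublet scores were removed as doublets at 0.8% per 1000 barcodes of a library, because Scrublet's own threshold called very few. Cells were clustered with scanpy 1.11.5 (2000 variable genes, 30 components, Leiden resolution 1.0) without the 9 genes and the listed stress genes. Classes were named from marker lists, with at least 3 markers detected. Counts were summed per library and class with at least 30 cells and tested with edgeR 4.0.16 (filterByExpr, TMM, robust quasi-likelihood test) in R 4.3.3, with Benjamini-Hochberg adjustment over all genes tested and calls under 0.05. Classes too small in the un-wounded libraries were compared in the wounded ones alone.

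The 9 members, the lists of other heat shock, unfolded protein response and immediate early genes, and the marker lists were chosen with earlier results of these data known. All 9 members are named, with the 3 most abundant genes of each list, the 2 with the largest change among those called, and the 5 genes most correlated with Hspa1a or Hspa5. Exact Poisson and binomial intervals (95%) cover counting error only. Tests were checked on simulated data: of 4-fold changes, 81% were recovered in the fibroblast comparison of 12227 genes and 83% in the basal one of 10946 genes, and of 2-fold changes 27% and 18%. In whole libraries, with 14511 genes, 0% of either were recovered. False calls were 14 of 122 simulated calls in fibroblasts, 25 of 126 in basal cells and 5 of 86 in bulge cells. They were 36 of 106 in the difference between fibroblasts and basal cells, and 29 of 151 in the basal contrast of the wounded libraries. Calls of members should be read beside these counts. Promoter windows came from RefSeq (GRCm38.p6), where 6 of 9 members had an entry.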

Additional observations from a re-analysis of the deposited data

How the results depend on the processing

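Of the alternative values that could be computed for comparisons, 754 were taken as the same as the main value and 133 as moved. A count or a library share was moved if it changed by more than 1.5 times, and a count also if it went to or from 0. A difference in the share of cells with a UMI was taken as the same if it kept its sign. For single genes, 1557 kept their side of the threshold, 74 lost a call, 10 gained one and 2 changed sign after being called. Among values that were not called, 73 of 828 had the other sign. The sign changes were Hspa1a in skeletal muscle cells, 0.38 with doublets kept and 0.36 at Leiden resolution 2.0. The cause of these moves was not tested unless the alternative itself removes cells, genes or samples.

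Genes called for the wound effect moved as follows. With DESeq2 there were 2667 in whole libraries, 86 in bulge keratinocytes and 103 in the difference between fibroblasts and basal cells. Without TMM there were 75 in whole libraries, and the median over all genes was -0.22 in place of -0.07 in basal cells and 0.53 in place of 0.06 for endothelial cells against other wounded classes. Without the filter on low counts there were 378 in whole libraries, 367 in basal, 385 in spinous, 247 in bulge and 47 in upper follicle keratinocytes, 993 in fibroblasts and 430 in the difference. A mitochondrial limit of 5% gave 33 in whole libraries and 1 in bulge cells. Keeping doublets gave 90 in the difference. A minimum of 500 genes gave 937 in fibroblasts and 381 in the difference, clustering with the stress genes 304 and 108, adding the Cthrc1 cluster 936 and 358, and leaving out the Thbs4 cluster 42 and 61. The cluster alternatives were chosen after seeing the data, and the last one left 0 members called in fibroblasts.

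Leaving out a library in turn gave 0 to 2001 genes called in whole libraries, 149 to 269 in basal, 34 to 444 in spinous, 19 to 117 in bulge and 7 to 41 in upper follicle keratinocytes, 264 to 793 in fibroblasts and 220 to 458 in the difference. Members called moved between 0 and 1 in each of these where they moved. In the wounded class contrasts the genes called went from 2073 to 3556 (basal), 1789 to 2008 (bulge), 1417 to 2433 (neutrophils), 2437 to 3810 (spinous), 1454 to 2471 (upper follicle) and 2460 to 3491 (endothelium), each below the main count, with fewer samples. Members called in the class contrasts went from 0 to 1, 0 to 2, 1 to 2 or 1 to 3 where they moved, and from 2 to 5 lower in the upper follicle. In bulge cells over the other wounded classes the 1 member called lower, Hspa5, was called in 0 of these fits.

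Members called in class contrasts also moved with the settings. Without TMM, 5 were higher in bulge over basal cells, 6 higher and 0 lower in bulge over other wounded classes, and 8 higher in endothelial cells, for which 4 higher and 1 lower were called without the filter. At Leiden resolution 2.0, 4 were lower in basal cells, 1 was higher in fibroblasts, and 2 were higher and 1 lower in muscle, where 0 were called in either direction with doublets kept. The other moves, under DESeq2, without the filter, with doublets kept, at 5% mitochondrial UMIs, at 500 genes and in the cluster alternatives, left 1 or 2 members where the main count was 0, 1 or 2. With TMM scaling of library pairs, the members past 2-fold moved to 0, 1 or 2 in 5 of the counts.

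Library numbers are shared by the groups. Deviations of same-numbered libraries correlated across genes at 0.48 and 0.49 in whole libraries, 0.53 and 0.46 in basal cells and 0.58 and 0.46 in fibroblasts. Deviations were taken from the group mean, so those of the 2 un-wounded libraries are equal and opposite. The 2 correlations of a class are therefore not independent. With no batch named in the labels either, this is a hint from the data only. With the replicate number as a block, wounded library 3 had no partner and was left out. The fit held libraries 1 and 2 of each group only, which leaves little to estimate the spread from. Genes called were then 0 in whole libraries, 492 in basal, 336 in spinous, 208 in bulge and 125 in upper follicle keratinocytes and 1125 in fibroblasts. Under the block Hspa1b (0.56, adjusted p = 0.044) joined Hsph1 in fibroblasts to make 2 members, Hsph1 was called in bulge cells (1.36, adjusted p = 0.048) and Hspa1a was lower in the upper follicle (-0.81, adjusted p = 0.0016), each by edgeR, and no other member call changed. The limit of 5% mitochondrial UMIs could not be fitted in basal and upper follicle cells, in the difference and in the contrasts over 5 libraries, and Leiden resolution 2.0 not in bulge and spinous cells or those contrasts, since a class fell under 30 cells in a library. Depth limits Hsph1 most, with 4 UMIs in the basal cells of wounded library 2. In the upper follicle it was at 0 CPM in a wounded library, and in wounded muscle cells at no more than 7.14 CPM.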

Other observations

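Mast cells reached 30 cells in a single library, wounded library 3, where 47 of them held the highest levels of several members. Hspa8 stood at 7216 CPM there, Hsp90aa1 at 3312, Dnajb1 at 3329.8, Hspa1a at 2796 and Hsph1 at 215. Krt14 stood at 76.3 CPM in these cells, with 3 of the 9 basal markers at 0, beside 3329.8 of Dnajb1. With 1 library there is no test and no spread between libraries.

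Pericytes or smooth muscle cells were also high. In un-wounded library 1 the 50 cells held 4178 CPM of Hspa1a and 5626 of Hspa8, and in un-wounded library 2 the 32 cells held 2521 and 2666. The wounded libraries with at least 30 such cells, 1 and 3, held 1752 and 1226 of Hspa1a and 2833 and 2407 of Hspa8. For Hspa1a both wounded values lay below both un-wounded ones, and for Hspa8 they did not. The comparison was not tested, since wounded library 2 held 20 of these cells.

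Within fibroblasts, Hspa1a was most uneven in cluster 14, led by Coch and Dkk2. It stood at 6731 and 2740.3 CPM in the un-wounded libraries and at 2577, 918 and 1599 in the wounded ones, whereas in cluster 9 it stood at 1046 and 1021 against 1357, 994 and 1013. These values were singled out after they were seen and have no test.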
